A study of Homo sapiens with 4 samples.

Results

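Transcripts of the NKG2D ligand genes were compared between SKOV3 cells and a cisplatin-resistant derivative of the same line. The members were taken by name: MICA, MICB, ULBP1, ULBP2, ULBP3, RAET1E, RAET1G and RAET1L, which are 8 of the 65988 gene identifiers in the count table. Of these, 7 had reads and all 7 entered the test. RAET1E had no read in any library. SKOV3 is a long-established line from a human ovarian carcinoma that carries an ERBB2 amplification, and RNA was sequenced from 2 wild-type and 2 cisplatin-resistant libraries. The resistant cells came from the wild-type cells through 6 rounds of cisplatin over 5 months, in which each 4 hour exposure at an increasing dose was followed by 3 weeks of recovery. Neither group was under drug when it was harvested in log growth. The submitters describe the libraries of a group as biological replicates and do not say that the selection was repeated, so the p-values measure the spread between these libraries. With no undrugged line of the same time in culture among the samples used here, resistance and divergence in culture cannot be told apart.

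NKG2D is an activating receptor on natural killer (NK) cells and on many T cells. Its ligands are surface proteins with a fold related to class I HLA molecules, and they are known to be induced on stressed, infected or transformed cells, DNA damage among the inducers. MICA and MICB lie in the HLA region and encode transmembrane proteins. The ULBP and RAET1 genes form a second cluster on the same chromosome. ULBP1, ULBP2, ULBP3 and the RAET1L product are held in the membrane by a lipid anchor, and RAET1E and RAET1G encode transmembrane forms. Ligands can be cut from the cell surface by metalloproteinases, so transcript levels and surface levels need not move together, and surface protein was not measured here.

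The family members resemble each other in sequence, which bears on how reads can be assigned to them. The first 120 coding bases of 4 genes of the ULBP cluster, from GENCODE release 29 transcripts on chromosome 6, are shown because RAET1G was called higher and the other genes were not called, while their starts are alike. Capitals mark bases that differ from ULBP2, at 14 positions in RAET1L, 17 in RAET1G and 23 in ULBP1.
ULBP2: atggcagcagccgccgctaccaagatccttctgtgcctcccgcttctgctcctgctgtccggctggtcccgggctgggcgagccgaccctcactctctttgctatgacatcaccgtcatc
RAET1L: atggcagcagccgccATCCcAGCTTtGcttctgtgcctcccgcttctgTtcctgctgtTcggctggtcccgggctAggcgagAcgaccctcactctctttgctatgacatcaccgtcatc
RAET1G: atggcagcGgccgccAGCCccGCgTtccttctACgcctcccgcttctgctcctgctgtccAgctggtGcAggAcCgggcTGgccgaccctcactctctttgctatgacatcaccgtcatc
ULBP1: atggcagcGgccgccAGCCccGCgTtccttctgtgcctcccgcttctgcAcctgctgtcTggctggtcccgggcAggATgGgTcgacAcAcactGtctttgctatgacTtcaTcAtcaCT
Over their aligned coding bases ULBP2 and RAET1L were 96.7% identical, ULBP2 and RAET1G 93%, and MICA and MICB 92.1%, while ULBP1 and ULBP3 were 75.2% identical. Of the distinct stretches of 50 bases in the transcripts, 32.2% in ULBP2, 31.5% in RAET1L and 18.3% in RAET1G also occurred in another gene. The share was 12.4% in ULBP3 and 6.85% in ULBP1, mostly through the pseudogene RAET1K, and 2.94% in MICB and 2.64% in MICA. How reads matching several genes were counted is not given in the sources used here, so the split of reads among ULBP2, RAET1G and RAET1L is uncertain.

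Overlap with other genes limited 3 members. In the whole table, 1494 of 1605 protein-coding genes whose span is wholly covered by other genes had no read (93.1%), against 1317 of 7350 that meet no other gene (17.9%) and 450 of 10731 that are partly covered (4.19%). RAET1E (149883375 to 149898102 on chromosome 6, minus strand, GRCh38) is wholly covered by the antisense gene RAET1E-AS1, so its 0 is not a measurement of expression. MICA is covered over 94.1% of its span by HCP5, a long non-coding RNA gene on the same strand. Of its 2386 exonic bases 918 are free, meaning outside the span of other genes with their introns, while other genes' exons share 2.6%. RAET1G is covered over 42.1% of its span, with 460 of 1486 exonic bases free in this sense and 9.29% shared with other genes' exons. MICB is covered over 0.628%, and ULBP1, ULBP2, ULBP3 and RAET1L are not covered.

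Library totals were 43658695 to 79592903 counts, and 1 CPM, the unit of level used below (reads scaled to library sizes adjusted by TMM), corresponded to 42.6 to 83.1 reads. Over genes, which are not independent of each other, log2 CPM correlated at 0.981 within wild-type, 0.988 within resistant and 0.913 to 0.92 across the groups. All 10 SKOV3 ovarian carcinoma markers had reads in the data. Their summed level was 6720 and 7340 CPM in the wild-type libraries and 3670 and 2990 CPM in the resistant libraries, with ERBB2 at 5510 ± 368 and 2460 ± 542 CPM (SD, n = 2) and 8 of the 10 were called. KRT7, EPCAM, MUC16, KRT8, KRT18 and ERBB2 were lower, with EPCAM at 31.6 ± 0.982 and 3.59 ± 0.753 CPM, and MSLN (17.8 ± 4.59 and 27.8 ± 3.96 CPM) and WT1 (0.853 ± 0.188 and 2.02 ± 0.182 CPM) were higher. Of 13 NK and T cell markers 10 had a read, and their summed level was 1.09 to 1.57 CPM in every library. Single markers differed in both directions at low counts. PTPRC had 0 and 0 counts in wild-type and 6 and 27 in resistant libraries, and GNLY 18 and 18, then 14 and 3. The 2 markers tested, KLRD1 and GNLY, were not called. The receptor gene KLRK1, which encodes NKG2D, its adaptor HCST and GZMB were at 0, but other genes cover KLRK1 and GZMB wholly and HCST over 72.5%. The 3 fibroblast markers summed to 0.915 and 1.03 CPM in wild-type and 26.3 and 37.5 CPM in resistant libraries, with DCN and LUM called higher. The 3 endothelial markers summed to 8.38 and 10.6 CPM in wild-type and 0.81 and 0.974 CPM in resistant libraries, with PECAM1 and VWF called lower. The part of these markers in the ligand results was not tested.

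The comparison asks whether ligand transcripts differ between the resistant line and its parent without drug. MICB fell about 4-fold in resistant cells, ULBP3 and RAET1G rose, and MICA, ULBP1, ULBP2 and RAET1L did not pass the test. Of the 7 tested members 3 were called (42.9%) by edgeR's quasi-likelihood test at a Benjamini-Hochberg adjusted p under 0.05, 2 higher and 1 lower. Over all 18602 tested genes 45.3% were called, 22.1% higher and 23.2% lower, and a share near this background is not a result about the members. The median log2 change (resistant over wild-type, as for every change below) was -0.23 over the 7 members and 0.00318 over all tested genes. The groups did not overlap for 5 of the 7 members, as for 73.5% of all tested genes, so this count is not a result about the members either (45.3% of all genes were called).

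**Figure D1:**
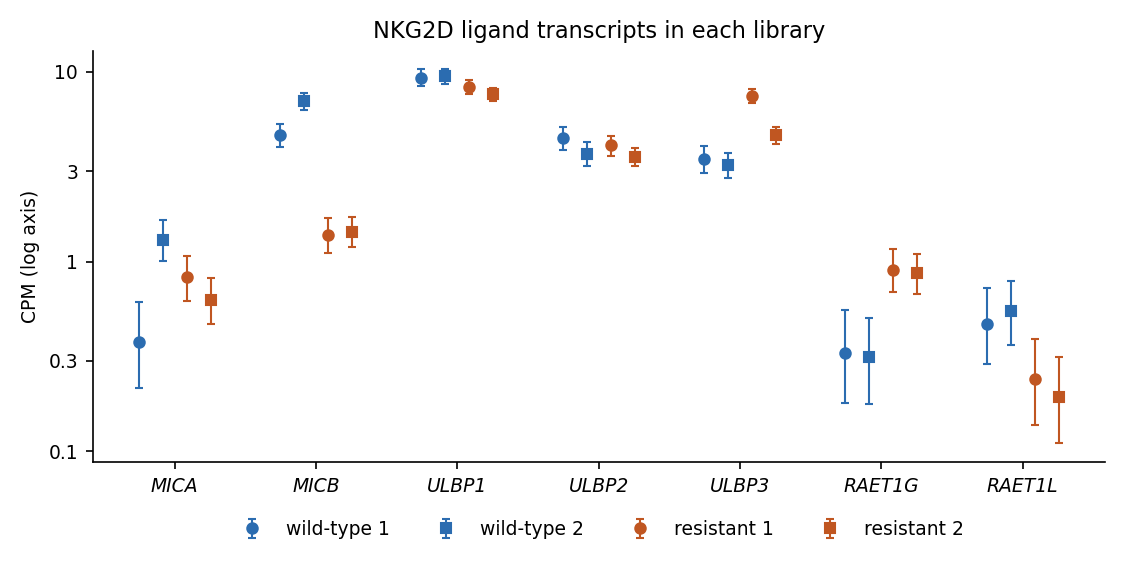
Level of each NKG2D ligand gene in CPM, on a log axis, 1 point per library (blue wild-type, orange resistant) with its exact Poisson 95% interval, which covers counting error only. MICB lies at 4.65 and 6.99 CPM in wild-type and 1.38 and 1.43 CPM in resistant libraries, while ULBP3 goes from 3.21 and 3.48 to 4.64 and 7.49 CPM.

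MICB is on chromosome 6 from 31494881 to 31511124 (GRCh38, plus strand). Wild-type replicates 1 and 2 held 198 and 359 counts and resistant replicates 1 and 2 held 92 and 119, or 4.65, 6.99, 1.38 and 1.43 CPM. Both resistant libraries lay below both wild-type libraries, which themselves differed. The mean went from 5.82 ± 1.66 to 1.41 ± 0.0359 CPM (SD, n = 2), 4.14-fold lower, with a log2 change of -2.05 ± 0.26 (SE, 95% interval -2.63 to -1.47, edgeR adjusted p = 9.58e-05). In bulk RNA, fewer cells with the transcript and less transcript per cell cannot be told apart.

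MICA, the closest relative of MICB, lies on the same strand from 31399784 to 31415315. It had 16 and 67 counts in wild-type and 55 and 52 counts in resistant replicates 1 and 2, or 0.376, 1.3, 0.825 and 0.625 CPM. The wild-type libraries stood on either side of the resistant ones, and their exact Poisson 95% intervals, 0.215 to 0.61 and 1.01 to 1.66 CPM, did not overlap. The log2 change was -0.23 ± 0.55 (95% interval -1.45 to 0.982, edgeR adjusted p = 0.76), an interval that holds changes of over 1 log2 unit downward. Without wild-type replicate 2 the direction turned, with a log2 change of 0.95 (adjusted p = 0.263). HCP5, whose span covers most of MICA, had 47.0 and 46.5 CPM in wild-type and 17.1 and 17.0 CPM in resistant libraries, a log2 change of -1.45 ± 0.13 (edgeR adjusted p = 5.27e-06). The part of HCP5 in the MICA counts was not tested.

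The 250 bases before the RefSeq starts of MICA (chr6:31403345-31403594, plus strand) and MICB (chr6:31497895-31498144, plus strand) are shown because the genes' proximal sequences are alike while MICB was called lower and MICA was not called, a difference that was not itself tested. Sequences are from RefSeq on GRCh38.p14, and capitals mark matches to the GC box GGGCGG, the heat shock letters GAANNTTC or the box named CCAAT, or to their reverse complements.
MICA: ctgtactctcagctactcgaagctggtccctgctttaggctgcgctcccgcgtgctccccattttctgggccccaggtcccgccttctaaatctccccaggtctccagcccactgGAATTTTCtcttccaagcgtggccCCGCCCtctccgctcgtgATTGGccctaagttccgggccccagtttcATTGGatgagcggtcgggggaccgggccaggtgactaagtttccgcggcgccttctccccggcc
MICB: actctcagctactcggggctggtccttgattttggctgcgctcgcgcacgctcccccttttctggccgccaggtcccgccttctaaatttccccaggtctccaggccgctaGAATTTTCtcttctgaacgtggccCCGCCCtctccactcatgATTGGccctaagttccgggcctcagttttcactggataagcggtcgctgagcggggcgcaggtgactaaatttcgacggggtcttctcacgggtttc
The windows were 84.0% identical over their 250 bases, against 41.6% to 59.2% for the other pairs of members. Both held a match to GAANNTTC, the core of the heat shock element, which reads the same on both strands and occurs in 5.78% of 35116 promoter windows of the same length. Both held GGGCGG, the GC box bound by SP1 family factors, found in 42.6% of windows. CCAAT, found in 32.0% of windows, occurred at 2 places in MICA and 1 in MICB. These matches are letters in a window and do not show binding.

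ULBP1 was the member with the most reads. It lies from 149964007 to 149973710 on the plus strand of chromosome 6 and had 396 and 486 counts in wild-type and 553 and 632 in resistant replicates 1 and 2, or 9.3, 9.47, 8.3 and 7.6 CPM. Both resistant libraries were slightly below both wild-type libraries. The log2 change was -0.24 ± 0.17 (95% interval -0.606 to 0.127, edgeR adjusted p = 0.266). ULBP2, on the plus strand from 149942000 to 149949235, had 190 and 190 counts in wild-type and 273 and 296 in resistant libraries, or 4.46, 3.7, 4.1 and 3.56 CPM. These groups overlapped. Its log2 change was -0.09 ± 0.22 (95% interval -0.578 to 0.395, edgeR adjusted p = 0.765), so a change of up to about 1.5-fold down is inside the interval.

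ULBP3, on the minus strand from 150063150 to 150069095, had 148 and 165 counts in wild-type and 499 and 386 in resistant replicates 1 and 2, or 3.48, 3.21, 7.49 and 4.64 CPM. Both resistant libraries were above both wild-type libraries, resistant replicate 1 by more. The mean went from 3.34 ± 0.185 to 6.06 ± 2.01 CPM, a log2 change of 0.86 ± 0.25 (95% interval 0.303 to 1.41, edgeR adjusted p = 0.0165). Without resistant replicate 1 the change was 0.48 and the call was lost (adjusted p = 0.162). RAET1K, a pseudogene between ULBP1 and RAET1L named here after its values were seen, shares 116 of the 50-base stretches of ULBP3. It had 10 and 37 counts in wild-type and 106 and 177 in resistant libraries, a log2 change of 1.93 ± 0.47 (edgeR adjusted p = 0.00645), and its part in the ULBP3 counts was not tested.

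RAET1G, also called ULBP5, lies on the minus strand from 149916878 to 149923121. It had 14 and 16 counts in wild-type and 60 and 72 in resistant libraries, or 0.329, 0.312, 0.9 and 0.866 CPM. Replicates were close and the groups far apart, at low depth. The log2 change was 1.46 ± 0.48 (95% interval 0.394 to 2.52, edgeR adjusted p = 0.0291). The call was lost with DESeq2 (adjusted p = 0.0626) and without wild-type replicate 2 (0.0644), resistant replicate 1 (0.143) or resistant replicate 2 (0.121). RAET1E-AS1, which overlaps RAET1G on the other strand, had a log2 change of 0.66 ± 0.33 (edgeR adjusted p = 0.124), and its part in the RAET1G counts was not tested.

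RAET1L, also called ULBP6, lies on the minus strand from 150018334 to 150025532 and had the fewest reads over all libraries, with 20 and 28 counts in wild-type and 16 and 16 in resistant libraries, or 0.47, 0.545, 0.24 and 0.192 CPM. Both resistant libraries were below both wild-type libraries. The log2 change was -1.23 ± 0.62 (95% interval -2.59 to 0.125, edgeR adjusted p = 0.127), and the interval holds both a large fall and no change. Because ULBP2, RAET1G and RAET1L share sequence, their sum was also taken. It was 5.26 and 4.56 CPM in wild-type and 5.24 and 4.62 CPM in resistant libraries, a resistant to wild-type ratio of 1.0. On average ULBP2 made up 4.08 of 4.91 CPM in wild-type and 3.83 of 4.93 CPM in resistant libraries. The sum therefore says little about RAET1G or RAET1L.

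**Figure D2:**
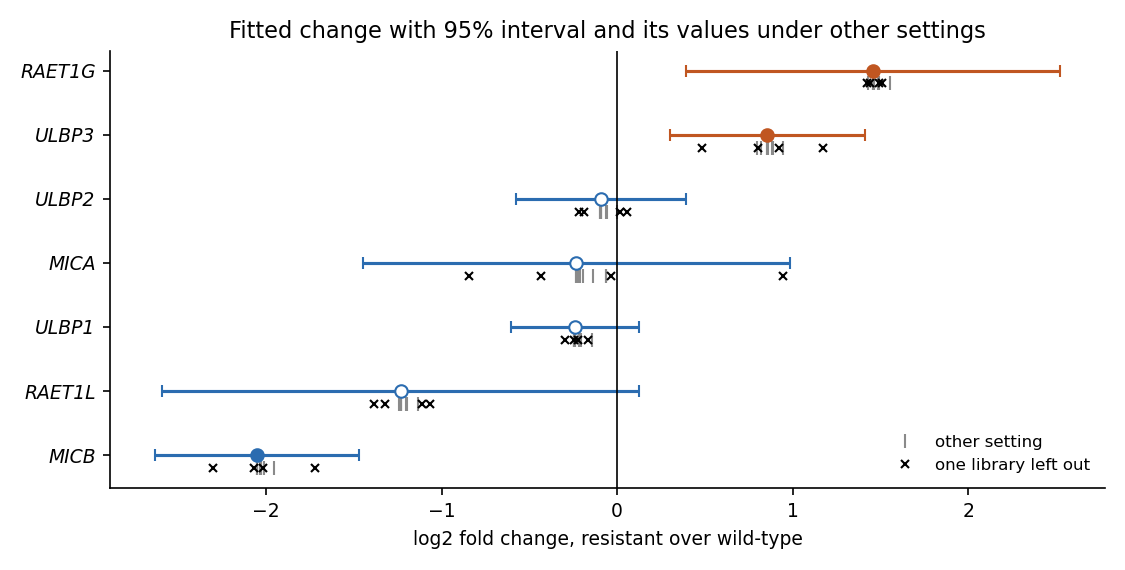
Log2 change (resistant over wild-type) of the 7 tested members with 95% intervals from edgeR, filled where called, and below each interval the values with a library left out (crosses) or under another setting (ticks). The interval lies below 0 for MICB and above 0 for ULBP3 and RAET1G, and the other intervals include 0.

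The windows before ULBP3 (chr6:150069122-150069371, minus strand) and RAET1G (chr6:149923122-149923371, minus strand) are shown for the members that were called higher, from RefSeq on GRCh38.p14 and written in the direction of the gene. Capitals mark matches to GGGCGG or CCAAT or to their reverse complements.
ULBP3: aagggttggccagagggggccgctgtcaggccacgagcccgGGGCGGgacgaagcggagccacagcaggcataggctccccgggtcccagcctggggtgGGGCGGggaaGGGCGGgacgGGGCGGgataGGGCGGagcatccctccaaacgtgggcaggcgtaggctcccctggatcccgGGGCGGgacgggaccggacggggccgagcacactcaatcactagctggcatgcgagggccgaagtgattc
RAET1G: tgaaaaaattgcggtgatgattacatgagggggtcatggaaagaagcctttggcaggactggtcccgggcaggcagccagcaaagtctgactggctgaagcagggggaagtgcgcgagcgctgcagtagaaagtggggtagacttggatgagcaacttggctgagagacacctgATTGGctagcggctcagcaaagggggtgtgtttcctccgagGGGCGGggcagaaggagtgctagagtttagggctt
ULBP3 held 6 matches to GGGCGG and none to the other letters searched, with a GC content of 72.0%. RAET1G held 1 GC box and 1 CCAAT box, with 56.4% of its bases G or C. TGACG, the core of the cyclic AMP response element (in 21.2% of windows), occurred at 3 places each before ULBP1 and ULBP2 and in none of the windows printed here. The windows of ULBP3 and RAET1G were 49.6% identical. Searched on both strands were the GC box GGGCGG, the CCAAT box, the TATA box TATAAA, the cyclic AMP response element TGACGTCA with its core TGACG inside it, and the E box CACGTG with the looser CANNTG that contains it. The heat shock letters GAANNTTC and, in the other phase, TTCNNGAA were searched too, as were the E2F letters TTTGGCGC, the combined C/EBP and ATF letters TGATGCAA and the AP-1 letters TGANTCA. Matches to CANNTG, found in 61.8% of windows, are not capitalised.

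Compared per kilobase of exon, the order of the members shifted between the groups. In wild-type cells ULBP3 (3.39 ± 0.187 CPM per kilobase), ULBP2 (3.03 ± 0.399) and ULBP1 (2.99 ± 0.0378) stood highest and ULBP2 did not differ from either beyond its spread, followed by MICB at 2.08 ± 0.592. RAET1L (0.377 ± 0.0398), MICA (0.352 ± 0.275) and RAET1G (0.215 ± 0.00813) were lowest, and MICA could not be ordered against the others. In resistant cells ULBP3 stood at 6.14 ± 2.04, ahead of ULBP2 at 2.84 ± 0.281 and ULBP1 at 2.53 ± 0.157, which lay within their spread of each other. RAET1G was at 0.594 ± 0.0163, MICB at 0.502 ± 0.0128, MICA at 0.304 ± 0.0592 and RAET1L at 0.161 ± 0.025. If all reads came from exonic bases outside the span of other genes, RAET1G would be at 0.696 ± 0.0263 in wild-type and 1.92 ± 0.0527 in resistant cells. MICA would be at 0.916 ± 0.716 and 0.79 ± 0.154. These values would place both above MICB in resistant cells. Of 637 protein-coding genes wholly covered by other genes without sharing an exon base, 615 had no read (96.5%). Whether reads on the covered exonic bases of MICA and RAET1G were counted was not tested.

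**Figure D3:**
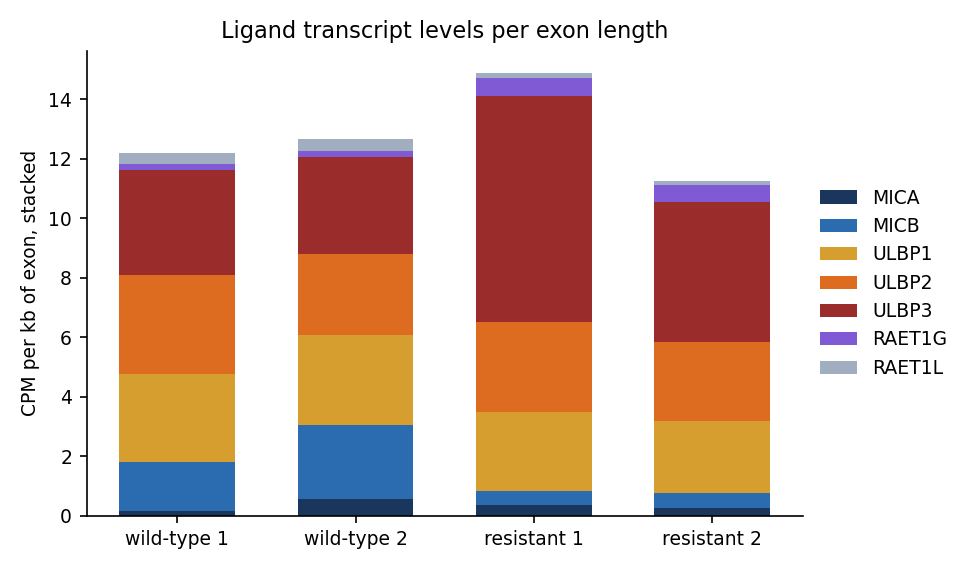
Levels of the 7 measured members in CPM per kilobase of exon, bases under other genes included, stacked in 1 bar per library from 0. The ULBP3 segment is 3.52 and 3.25 in wild-type and 7.58 and 4.7 in resistant replicates 1 and 2, and the MICB segment 1.66, 2.5, 0.493 and 0.512.

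As a share of the summed level per kilobase, ULBP3 made up 28.9% and 25.7% in wild-type and 50.9% and 41.7% in resistant replicates 1 and 2. MICB made up 13.7% and 19.7% in wild-type and 3.32% and 4.54% in resistant libraries. These shares use all exonic bases, those under other genes included. With only exonic bases outside other genes, ULBP3 made up 27.2% and 23.2% in wild-type and 45.2% and 36.2% in resistant libraries. MICB then made up 12.9% and 17.8% in wild-type and 2.94% and 3.94% in resistant libraries. ULBP3 thus had a larger and MICB a smaller share in both resistant libraries than in either wild-type library, without a test. The summed CPM of all members was 23.1 and 25.5 in wild-type and 23.2 and 18.9 in resistant libraries. MICA and MICB together summed to 5.03 and 8.3 CPM in wild-type and 2.21 and 2.06 CPM in resistant libraries. The ULBP and RAET1 genes together summed to 18.0 and 17.2 CPM in wild-type and 21.0 and 16.9 CPM in resistant libraries, and these groups overlapped. Among all tested genes the members were in the lower part of the range, with 11.1% (RAET1L) to 45.8% (ULBP1) of genes below them by mean CPM.

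By Euclidean distance of centred log2 CPM over the 4 libraries, the genes nearest to ULBP1 were POC1A (0.0088), DUSP16 (0.0108) and ZNF287 (0.015). None was called, but they were picked for a profile like that of ULBP1, so this is not a separate result.

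Genes on either side of the clusters were described because members lie close together. Of the 10 nearest tested protein-coding genes around MICA and MICB, 2 were higher and 5 lower (70.0% called, beside 45.3% of all tested genes), with a median log2 change of -0.58 and 8 of the 10 fitted below 0. HLA-C, a class I HLA gene 127654 bases before MICA, had a change of -1.54 ± 0.12 (edgeR adjusted p = 1.62e-06), though other genes cover 78.1% of it. LTB, a lymphotoxin subunit, changed by -4.74 ± 0.80 and LTA, another, by 1.48 ± 0.32, with TNF between them at -0.10 ± 0.18. Of the 10 genes around the ULBP cluster, 4 were higher and 2 lower (60.0% called), with a median of 0.15 and 4 fitted below 0. LRP11, 19349 bases before the cluster, rose by 0.83 ± 0.14, and PPP1R14C, 73981 bases after it, fell by 1.49 ± 0.14. Whether the members moved with their surroundings was not tested.

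**Figure D4:**
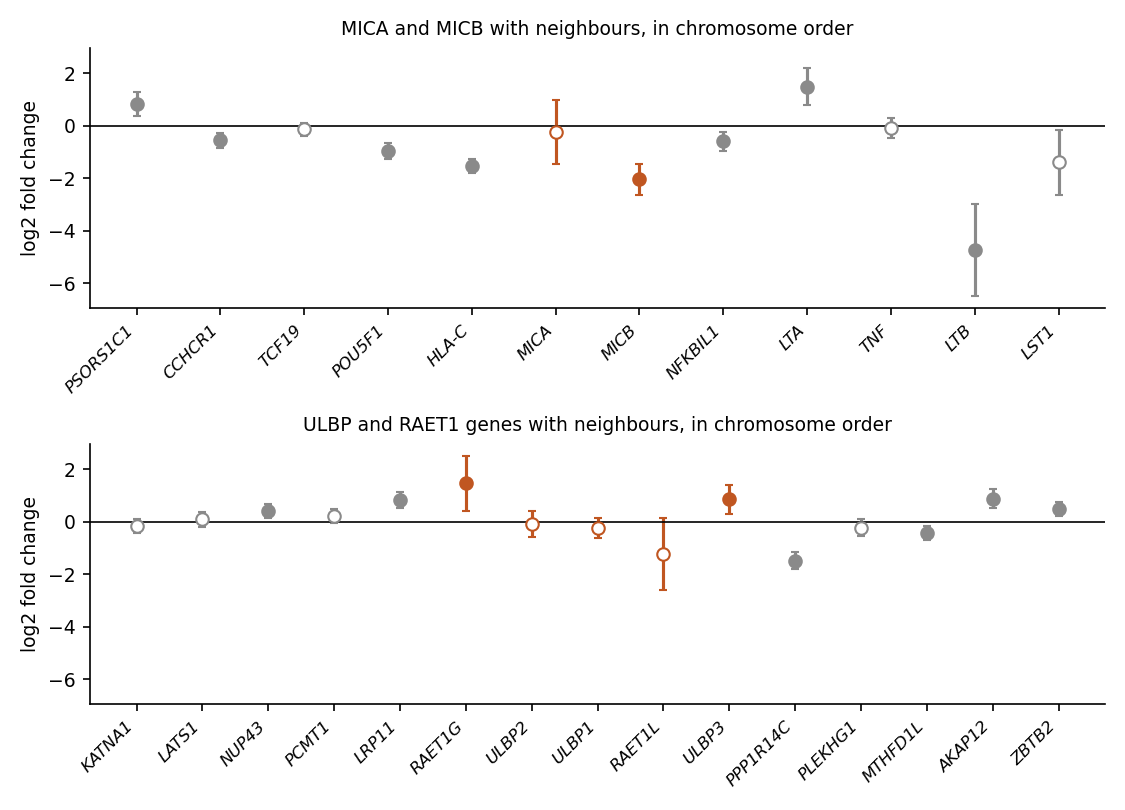
Log2 change (resistant over wild-type) of the members and of the 5 nearest tested protein-coding genes on each side of either cluster, in order along chromosome 6, with edgeR 95% intervals (orange members, grey neighbours, filled where called). Genes higher and lower lie among each other around both clusters.

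Ligand proteins can be released by proteases, and of 6 tested genes for shedding enzymes and the chaperone 2 were higher and none lower, with a median of 0.18. TIMP3, also in this list, had no read, but other genes cover its span wholly. MMP2, a secreted gelatinase, rose from 39.0 ± 0.568 to 646 ± 12.4 CPM (log2 change 4.05 ± 0.12, edgeR adjusted p = 1.85e-09). ADAM17, which cleaves MICA and MICB, rose from 28.6 ± 1.23 to 41.1 ± 6.78 CPM (0.52 ± 0.15, edgeR adjusted p = 0.0121). The others tested, ADAM9 (0.40 ± 0.20), ADAM10 (-0.05 ± 0.11), PDIA6 (-0.14 ± 0.16) and MMP14 (-0.46 ± 0.21), were not called. MMP9 had too few reads to be tested. Of 5 damage kinase genes tied to ligand induction, none was called by edgeR, DESeq2 or limma-voom. ATM alone had an unadjusted p under 0.05 in edgeR (0.51 ± 0.21, adjusted p = 0.072). Of 16 genes listed as transcription factors reported at ligand promoters 2 were higher and 6 lower, none by 2-fold, with a median of -0.19. This transcription factor list includes the chromatin enzyme genes EZH2 and HDAC3, neither of them called.

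In the list of other activating NK ligands, 13 of 18 genes were tested, with 4 higher and 5 lower and a median of 0.03. The list, called activating below, also holds CD59, VIM and PCNA, all called higher, and TNFRSF9, not called, which are not plain activating ligands. PVR, CLEC2A, CD48 and SLAMF7 had no read, and other genes cover PVR wholly and CD48 over 63.5%. NCR3LG1, the B7-H6 ligand of NKp30, rose from 1.07 ± 0.277 to 4.78 ± 2.61 CPM (2.16 ± 0.39, edgeR adjusted p = 0.000982). CLEC2B, the ligand of NKp80, fell from 2.79 ± 0.00622 to 0.309 ± 0.141 CPM (-3.14 ± 0.39, edgeR adjusted p = 8.06e-05). The adhesion ligands ICAM1 and ICAM2 changed by -1.64 ± 0.48 and -1.13 ± 0.23, ICAM1 with 95.6% of its span covered by other genes. Among ligands of inhibitory receptors 12 of 14 were tested, with 2 higher and 8 lower and a median of -0.97. HLA-B and CEACAM1 had no read, and other genes cover CEACAM1 wholly and HLA-B over 20.1%. CDH1, a ligand of KLRG1, changed by -5.51 ± 0.25, LGALS9, a ligand of TIM-3 with 55.6% of its span covered, by -3.19 ± 0.33 and HLA-G by -1.43 ± 0.15, while CD274, which encodes PD-L1, rose by 1.62 ± 0.29. The class I HLA genes are alike in sequence, so the split of reads among them is uncertain. Of 8 genes for death, decoy and cytokine receptors on target cells, 3 were higher and 1 lower, none by 2-fold. The higher ones were TNFRSF10B (0.40 ± 0.11), the decoy receptor TNFRSF10D (0.83 ± 0.13) and IFNGR2 (0.40 ± 0.14). TNFRSF1A was lower (-0.48 ± 0.11). The share called was 33.3% of the shedding list, 69.2% of the activating and 83.3% of the inhibitory list, beside 45.3% of all tested genes. In the transcription factor list 8 of 16 genes were called, and in the receptor list 4 of 8.

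**Figure D5:**
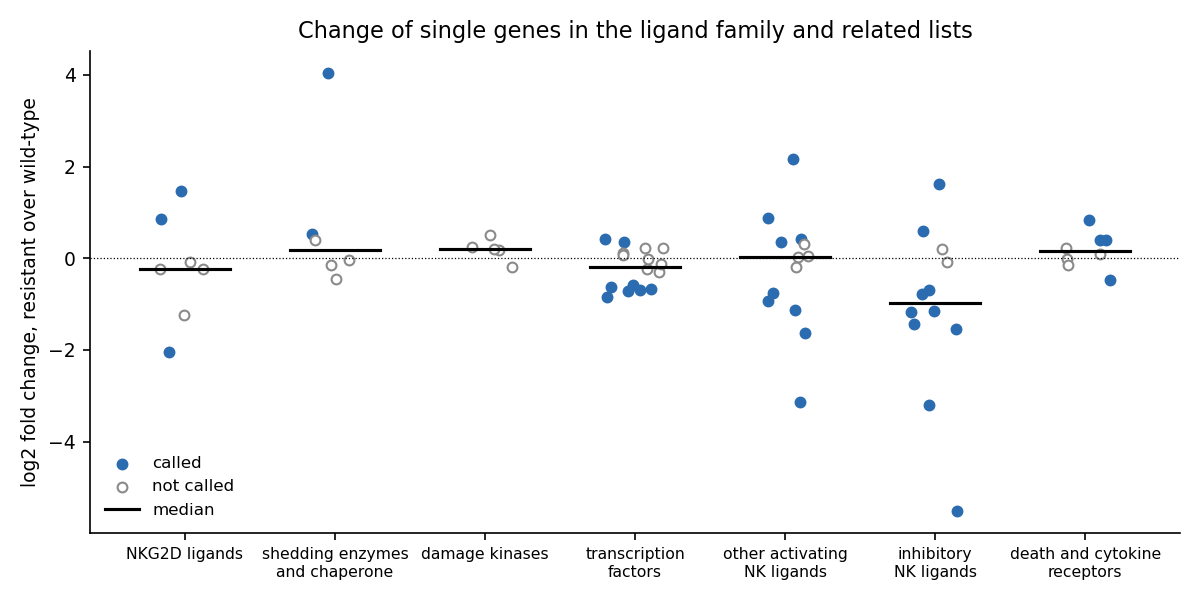
Log2 change (resistant over wild-type) of each tested gene in the NKG2D ligand list and the lists around it, 1 point per gene, filled where called, with a line at the list's median. The inhibitory ligand list has a median of -0.97, the NKG2D ligands -0.23 and the other lists -0.19 to 0.19.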

How the data were processed

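RNA was sequenced from 2 wild-type and 2 cisplatin-resistant SKOV3 libraries. The authors deposited whole-number read counts per gene, not normalized. Per the submitters' processing notes, STAR 2.5.1a and GRCh38.p7 were used, and HTSeq and DESeq are listed with no version. Neither the annotation nor the settings for counting are given in the sources used here. A second deposited table of normalized values was not used.

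The test was the quasi-likelihood F test of edgeR 4.0.16 (R 4.3.3), with TMM scaling, filterByExpr at its defaults (at least 10 counts, total at least 15) and no term but group. Benjamini-Hochberg adjustment ran over all 18602 genes tested, with genes called under 0.05. The standard error was taken from the F statistic, as the log2 change over its square root. Intervals are 95%, and Poisson intervals cover counting error only, since reads are not independent molecules. MICA and MICB have several rows for alternate haplotypes, of which 1 each held reads. Gene positions, exon lengths, overlaps and coding sequences were taken from GENCODE release 29 on GRCh38, which holds 56927 of the 65988 identifiers. Promoters are from RefSeq on GRCh38.p14. The fit was tested on simulated data. The alternatives were DESeq2 1.42.0, limma-voom (limma 3.58.1), other scaling, other filters, a replicate block, summed rows and each library left out.

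The rule for naming took every member, the genes of each list called with at least a 2-fold change (at most 6 a list), the markers, and the 3 genes nearest in pattern to the member of highest mean CPM. Markers are given mostly as sums, and 1 list gene that the rule names is not reported here. Other list genes and neighbours named in the text were chosen after their values were seen. The members and lists were chosen with earlier results of these data known.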

Additional observations from a re-analysis of the deposited data

How the results depend on the processing

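MICB was called lower in all 12 alternatives that tested it, with log2 changes from -2.30 to -1.72, and ULBP1 and RAET1L were called in none. The MICA change ran from -0.84 to 0.95 when each library was left out. That of ULBP2 ran from -0.218 to 0.057, and was 0.0013 with library totals alone. The ULBP3 change ran from 0.48 to 1.17 and the RAET1G change from 1.42 to 1.51 with each library left out. The RAET1G change was 1.46 with DESeq2, where its call was lost. Without each library in turn, 0 to 2 ligands were called higher. With DESeq2 1 ligand was higher, and at a mean of at least 5 CPM, where ULBP1 alone was tested, 0 were higher and 0 lower. The cause of these changes was not tested. Among lists, leaving out libraries gave 1 to 3 shedding genes higher and 0 to 1 lower, 0 to 2 kinases higher, 0 to 3 transcription factors higher, 2 to 5 activating ligands higher, 1 to 3 receptors higher and 0 to 1 lower, and, around the ULBP cluster, 2 to 4 genes higher and 1 to 2 lower. With library totals, upper-quartile factors, no filter or the replicate block, 1 kinase was called higher. At a mean of at least 5 CPM fewer genes of these lists were tested. There 2 of 8 tested activating ligands were lower, and 1 of 10 tested inhibitory ligands was higher. Of 7 tested neighbours of MICA and MICB, 1 was higher.

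Same-numbered libraries did not deviate together (correlation 0.0684), and no label ties the numbers. With the replicate block 9646 genes were called, against 8420. The member calls were unchanged with it, with log2 changes of -2.03 for MICB, 0.82 for ULBP3 and 1.46 for RAET1G. RAET1L, RAET1G and MICA had the fewest reads, 80, 162 and 190 counts over all libraries, and the widest intervals of the members.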
